A study of Homo sapiens with 12 samples.

Results

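The 9 genes described here, PXDN, ADAM19, NT5E, UPK1B, PLAT, CCBE1, CRISPLD2, HYAL1 and KIAA1462 (now named JCAD), encode proteins of the extracellular matrix, proteases and cell-surface proteins. They were taken by symbol from the deposited table, where they are 9 of 25365 names, and had been chosen by their difference between PARP3-/- and wild-type A549 cells in these same libraries. The levels of the 2 genotypes are therefore given as a description, without a test, and tests are kept for pyridostatin, for other genes of the same pathways and for chromosomal neighbours. A549 is an epithelial line from a human lung adenocarcinoma. Wild-type cells and PARP3-/- cells received either DMSO vehicle or 1 µM pyridostatin, a ligand that stabilizes G quadruplex (G4) DNA, for 24 h. Each of the 4 groups had 3 biological replicates, which gave 12 poly(A) RNA-seq libraries. In PARP3-/- cells, exon 1 of PARP3 had been cut with Cas9 to delete sequence, and the cells were cloned by serial dilution, so genotype cannot be told apart from differences between clones. The study describes PARP3-/- A549 cells that also carry a rearrangement reporter, and whether the wild-type cells used for RNA carried it is not given in the sources used here.

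A cell surrounds itself with a basement membrane of laminins, collagen IV and heparan sulphate proteoglycans, and with a looser matrix that holds hyaluronan. Peroxidases and oxidases crosslink these fibres, proteases such as the ADAMs, the plasminogen activators and the matrix metalloproteases cut them, and secreted inhibitors hold the proteases in check. Enzymes anchored on the outer membrane act on small molecules there, as NT5E (CD73) does when it turns AMP into adenosine.

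Expression was given as FPKM, fragments scaled to transcript length and to the mapped fragments of the library, so levels of different genes can be compared per length. All 9 genes were listed in every library, and all 9 passed the filter, which required 1 FPKM or more on average over the 12 libraries. Of these, 4 (PXDN, UPK1B, CCBE1 and KIAA1462) were under 1 FPKM on average in both wild-type groups and passed only through the libraries labelled PARP3-/-. HYAL1 was under 1 FPKM on average in 1 group. Depth estimated from the steps between low values was about 21600000 to 30700000 reads a library. With the longest protein-coding GENCODE transcript of each gene, this put about 30 to 300 reads behind a UPK1B value, 60 to 660 behind PXDN, 40 to 180 behind HYAL1, 70 to 280 behind PLAT and 1450 to 4100 behind NT5E. With the shortest transcript these were 10 to 90, 10 to 60, 10 to 40, 10 to 60 and 250 to 720 reads.

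The level of the targeted gene did not separate the genotypes in the direction of the label. With vehicle PARP3 measured 3.40 to 3.96 FPKM in wild type against 4.07 to 4.92 FPKM under the PARP3-/- label, and with pyridostatin 3.57 to 4.05 against 4.30 to 4.73 FPKM. The differences of 0.683 and 0.792 FPKM gave p = 0.1 each in a two-sided exact permutation test, the smallest p that 3 libraries against 3 allow. RNA summed over the whole gene is no check of the protein. For the knockout the study gives Sanger sequencing of the deletion, and immunoblots of PARP3-/- A549 cells in which PARP3 was expressed again. Whether the deletion changes RNA summed over the gene was not tested, and directions below follow the labels of the libraries. The summed level of 6 epithelial markers, mostly the keratins KRT7, KRT8 and KRT18, was 7218 to 8630 FPKM in wild type and 6955 to 7698 FPKM in the libraries labelled PARP3-/- with vehicle. Within it KRT19 averaged 90.5 and 163 FPKM, KRT18 2947 and 2484 FPKM, CDH1 14.0 and 10.2 FPKM and EPCAM 2.12 and 1.16 FPKM. Of 6 alveolar type II markers 5, the surfactant genes among them, were below 1 FPKM in every library, and ABCA3 (7.99 to 11.1 FPKM) set the sum, which was 8.20 to 8.82 FPKM in wild type and 10.0 to 10.3 FPKM under the PARP3-/- label with vehicle, and 9.10 to 9.31 and 10.3 to 11.3 FPKM with pyridostatin. The sum of 4 leukocyte markers was 17.5 to 20.2 and 23.6 to 27.3 FPKM with vehicle and 16.9 to 18.8 and 25.1 to 25.5 FPKM with pyridostatin, nearly all of it CD68 and CD14, while CD3E was at 0 in all libraries and PTPRC in 10. The summed level of 6 fibroblast markers was 0.664 to 0.975 FPKM in wild type and 1.50 to 1.79 FPKM in the libraries labelled PARP3-/- with vehicle, and 0.837 to 1.07 and 1.66 to 2.04 FPKM with pyridostatin. Of these 6, COL1A1 gave most of the signal, LUM followed, and the 5 others than COL1A1 were below 1 FPKM in every library, with DCN at 0 in 11 and COL1A2 in 10. The part of any of these markers in the levels below was not tested, and in bulk RNA fewer cells of a type and less RNA per cell cannot be told apart. Wild-type vehicle replicate 2 stood apart: without it the genes called between genotypes rose from 1118 to 1657 with vehicle and from 1297 to 2294 with pyridostatin, although it is not in the latter comparison and enters only through the shared estimate of the spread.

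Promoter windows show what sequence lies in front of these genes. RefSeq (GRCh38.p14) start sites were matched for 8 of the 9 genes, in 9 windows because KIAA1462 has 2. The 250 bases before the start were searched on both strands for TGANTCA (bound by AP-1), GGAATG (TEAD), GGGCGG (Sp1), TATAAA (the TATA box) and 4 runs of GGG separated by 1 to 7 bases, the letter pattern of a G quadruplex. GGGCGG was found in 5 of the 9 windows and in 42.6% of all 35116 windows of the table, and the G4 pattern in 5 of the 9 and in 23.3% of all. GGAATG was found in 2 (UPK1B and the second KIAA1462 window, 11.9% of all) and TGANTCA in 1 (the first KIAA1462 window, 6.57% of all). TATAAA was in none of the 9, against 10.7% of all. The windows of the genes with the largest ratio between genotypes (PXDN and UPK1B) and of those called for pyridostatin (NT5E and HYAL1) are printed 5′ to 3′ on the strand of the gene, ending at the base before the start. Capitals mark GGGCGG or its complement CCGCCC in PXDN, GGAATG read on the other strand in UPK1B, and both the G4 pattern and GGGCGG on either strand in NT5E and HYAL1. The windows span chr2:1744516-1744765 (minus strand) for PXDN, chr3:119173348-119173597 (plus) for UPK1B, chr6:85449833-85450082 (plus) for NT5E and chr3:50303575-50303824 (minus) for HYAL1.
PXDN: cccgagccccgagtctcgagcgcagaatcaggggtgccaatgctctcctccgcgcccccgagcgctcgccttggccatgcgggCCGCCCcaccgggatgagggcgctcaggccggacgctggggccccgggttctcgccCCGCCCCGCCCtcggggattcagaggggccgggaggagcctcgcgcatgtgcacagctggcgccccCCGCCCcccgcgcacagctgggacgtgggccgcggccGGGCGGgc
UPK1B: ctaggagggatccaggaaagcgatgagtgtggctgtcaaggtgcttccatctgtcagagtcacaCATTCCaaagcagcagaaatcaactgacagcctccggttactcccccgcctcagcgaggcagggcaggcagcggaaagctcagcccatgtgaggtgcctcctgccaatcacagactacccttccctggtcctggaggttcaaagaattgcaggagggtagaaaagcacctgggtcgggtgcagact
NT5E: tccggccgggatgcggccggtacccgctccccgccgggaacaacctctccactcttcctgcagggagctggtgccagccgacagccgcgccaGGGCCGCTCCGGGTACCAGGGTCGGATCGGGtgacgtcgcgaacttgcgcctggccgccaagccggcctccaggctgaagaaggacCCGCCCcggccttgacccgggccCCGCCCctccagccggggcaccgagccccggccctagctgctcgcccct
HYAL1: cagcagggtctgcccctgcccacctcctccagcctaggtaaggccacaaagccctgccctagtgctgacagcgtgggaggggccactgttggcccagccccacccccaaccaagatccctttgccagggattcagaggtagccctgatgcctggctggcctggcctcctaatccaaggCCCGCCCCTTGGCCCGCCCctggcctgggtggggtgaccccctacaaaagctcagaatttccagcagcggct
The GC content of these stretches was 78.4% for PXDN, 56.8% for UPK1B, 75.2% for NT5E and 65.6% for HYAL1, against a median of 58% over all windows. PXDN held 5 GGGCGG matches, the farthest at -167 to -162 relative to the start. In HYAL1 the G4 pattern lay on the opposite strand from -72 to -54 and overlapped its 2 GGGCGG matches, whereas in NT5E it ran from -158 to -128 and lay apart from its 2 matches. The UPK1B window held no GGGCGG and no G4 pattern, and its single GGAATG match was at -186 to -181. These are matches of letters in a short window, and say nothing of whether a factor binds or a G quadruplex forms there.

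With vehicle, 8 of the 9 genes were higher and 1 (HYAL1) was lower in the libraries labelled PARP3-/-, and the same held with pyridostatin. In neither comparison did the genotypes overlap for any of the 9. Because the genes were selected on this difference, nothing is read from that count, and the share of all tested genes without overlap was not computed. By a different measure, 9.41% of the 11881 tested genes were called with vehicle and 10.9% with pyridostatin (adjusted p under 0.05, limma). The median size of the difference was 1.02 on the log2(FPKM + 1) scale with vehicle and 0.97 with pyridostatin, and 0.075 and 0.081 over all tested genes. Values on this scale understate the ratio of genes near or below 1 FPKM, so ratios of mean FPKM are given as well.

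**Figure D1:**
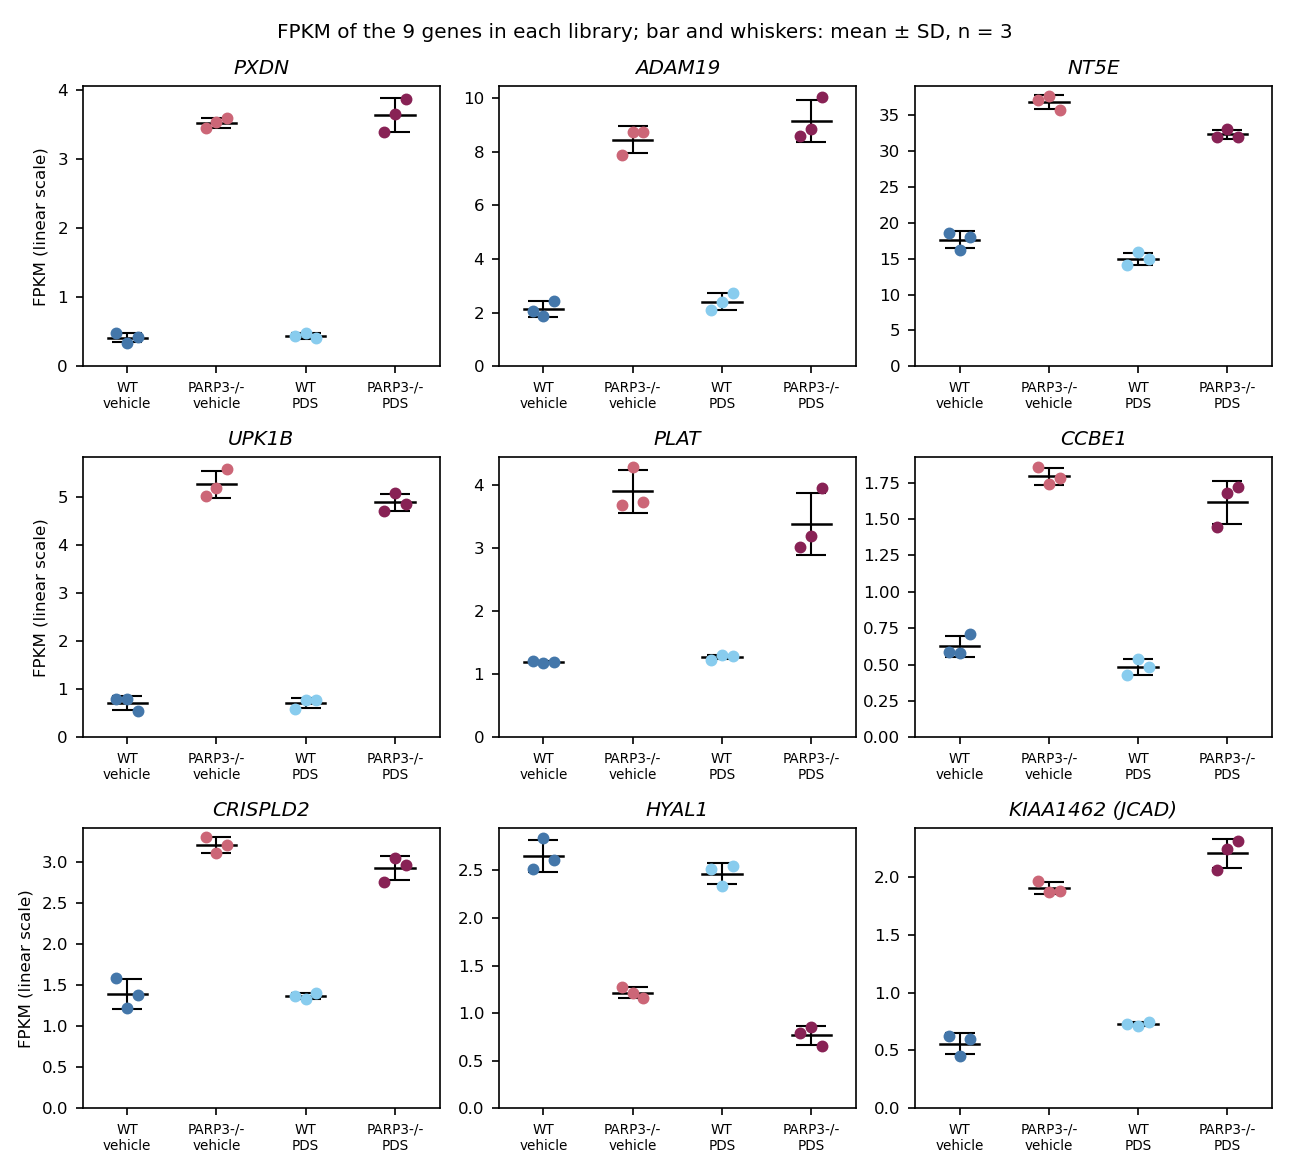
FPKM of each of the 9 genes (y axis, linear and starting at 0) in the 12 libraries, with 3 points a group for replicates 1 to 3 from left to right; bars and whiskers give the mean and SD (n = 3). In each panel the libraries labelled PARP3-/- lie apart from the wild-type ones with both treatments, below them for HYAL1 and above them for the other 8 genes, while PDS (pyridostatin) moves the points far less.

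Among the matrix proteins, the widest gap was that of PXDN, a secreted peroxidase that crosslinks collagen IV in basement membranes. With vehicle PXDN was at 0.478, 0.343 and 0.432 FPKM in the 3 wild-type libraries and at 3.46, 3.55 and 3.59 FPKM in the libraries labelled PARP3-/-. With pyridostatin it was at 0.436, 0.481 and 0.406 FPKM in wild type and at 3.40, 3.65 and 3.88 FPKM in the libraries labelled PARP3-/-. Every wild-type library was thus below 0.5 FPKM, and every other library above 3 FPKM. Ratios of the means were 8.46 with vehicle and 8.27 with pyridostatin, the highest of the 9 genes with either treatment, and the log2(FPKM + 1) differences were 1.68 and 1.69 (standard error 0.0605 each, limma).

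Other basement membrane genes, none of them among the 9, were tested, although this list was drawn up with results of these data known. Of 28 listed laminins, collagen IV chains, nidogens, proteoglycans and lysyl oxidases, 16 were tested, and with vehicle 9 rose and 1 fell in the libraries labelled PARP3-/-, where 6.4% of all tested genes rose and 3.01% fell (adjusted p under 0.05, limma). With pyridostatin 8 rose and 1 fell, where 7.07% of all tested genes rose and 3.85% fell. The counts of the other lists below stand beside these same shares of all tested genes. The median difference of the 16 was 0.24 and 0.20 on the log2(FPKM + 1) scale, against 0.015 and 0.0083 over all tested genes. The collagen IV chain COL4A6 differed by 0.69 (adjusted p = 5.39e-05) and the proteoglycan perlecan, HSPG2, by 0.66 (adjusted p = 0.00427) with vehicle, and by 0.55 and 0.71 with pyridostatin (adjusted p = 0.000305 and 0.00251, limma). PXDN's own paralog PXDNL was below the filter, with a mean of 0.00837 FPKM.

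CRISPLD2, a secreted protein with CAP and LCCL domains known from lung development, was at 1.59, 1.22 and 1.37 FPKM in wild type and at 3.31, 3.11 and 3.21 FPKM in the libraries labelled PARP3-/- with vehicle. With pyridostatin it was at 1.36, 1.33 and 1.41 FPKM against 2.76, 3.05 and 2.96 FPKM. The ratios of the means were 2.30 and 2.14, and the least wide gap between single libraries was 1.96-fold with either treatment. Of 18 listed relatives with a CAP or LCCL domain only 5 were expressed enough to be tested. Of these 3 rose with vehicle and 4 with pyridostatin, where 6.4% and 7.07% of all tested genes rose. The largest difference was that of GLIPR1, a membrane protein with a CAP domain, at 16.7 FPKM in wild type and 32.7 FPKM in the libraries labelled PARP3-/- (log2 difference 0.93, standard error 0.0753, adjusted p = 1.89e-05, limma). Its difference with pyridostatin was 0.98 (adjusted p = 1.33e-05, limma). GLIPR2 (0.40 with either treatment, adjusted p = 0.00562 and 0.00472, limma) and DCBLD1 (0.48 and 0.38, adjusted p = 0.0142 and 0.0425, limma) followed. The DCBLD1 call with pyridostatin was lost in 11 of 20 alternatives, 9 of them the removal of 1 library, with adjusted p up to 0.152.

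HYAL1, the acid hyaluronidase that breaks hyaluronan down in lysosomes, was the gene of the set that was lower in the libraries labelled PARP3-/-. With vehicle it was at 2.52, 2.84 and 2.61 FPKM in wild type and at 1.27, 1.22 and 1.16 FPKM in the libraries labelled PARP3-/-. With pyridostatin the values were 2.52, 2.34 and 2.54 FPKM against 0.793, 0.851 and 0.656 FPKM. Wild type was 2.18 times as high with vehicle and 3.22 times as high with pyridostatin.
The neighbouring hyaluronidase genes HYAL2 and HYAL3 did not pass the test between genotypes (log2 differences of 0.013 and 0.045 with vehicle and -0.065 and -0.062 with pyridostatin, adjusted p at least 0.637, limma). Among 22 listed genes of hyaluronan synthesis, binding and breakdown, 13 were tested, and with either treatment 4 rose and 1 fell. VCAN, the hyaluronan-binding proteoglycan versican, was the gene that fell, from 7.10 FPKM in wild type to 2.73 FPKM with vehicle and from 8.40 to 3.24 FPKM with pyridostatin. Its log2(FPKM + 1) differences were -1.11 and -1.15 (standard error 0.0988, adjusted p = 3.67e-05 and 2.91e-05, limma). On this scale VCAN was the only gene of all 10 lists past 1 in size, where 0.362% and 0.396% of all tested genes passed with vehicle and with pyridostatin. Ratios of its means were 0.384 and 0.385. TNFAIP6, a secreted protein that binds hyaluronan, rose from 1.14 to 3.15 FPKM with vehicle and from 0.830 to 2.33 FPKM with pyridostatin. Its ratios of the means were 2.76 and 2.80, although its log2(FPKM + 1) differences stayed under 1, at 0.96 and 0.86 (adjusted p = 2.94e-05 and 6.44e-05, limma). The link protein HAPLN3 rose by 0.66 and 0.75 (adjusted p = 0.000332 and 0.000129, limma).

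Of the proteases, ADAM19 is a membrane-bound metalloprotease that sheds the outer parts of other surface proteins. It was at 2.05, 1.88 and 2.45 FPKM in wild type and at 7.85, 8.74 and 8.73 FPKM in the libraries labelled PARP3-/- with vehicle. With pyridostatin it was at 2.09, 2.41 and 2.71 FPKM against 8.57, 8.84 and 10.0 FPKM, so that the closest pair of libraries of the 2 genotypes still differed 3.21-fold with vehicle and 3.16-fold with pyridostatin. The ratios of the means were 3.96 and 3.80. In its family 9 of 19 listed ADAMs and TIMPs were tested, and the inhibitor TIMP2 alone rose between genotypes, by 0.24 with vehicle and 0.41 with pyridostatin (adjusted p = 0.00733 and 0.000209, limma). None of the other 8 tested genes of this list passed. The share called, 11.1% with either treatment, was near the 9.41% and 10.9% of all tested genes. Among 23 matrix metalloproteases 7 were tested and none passed with vehicle, whereas MMP28 and MMP7 rose with pyridostatin, by 0.53 and 0.29 (adjusted p = 0.00162 and 0.00779, limma). Their vehicle differences were 0.27 and 0.17 (adjusted p = 0.0611 and 0.0924, limma), and the interaction did not pass for either (adjusted p = 0.999 and 0.999, limma).

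PLAT, the tissue plasminogen activator, is a secreted protease that turns plasminogen into plasmin. With vehicle it was at 1.21, 1.18 and 1.19 FPKM in wild type and at 3.68, 4.28 and 3.72 FPKM in the libraries labelled PARP3-/-, and with pyridostatin at 1.23, 1.30 and 1.29 against 3.01, 3.18 and 3.94 FPKM. The SD was 1.46% and 2.97% of the mean in wild type with vehicle and pyridostatin, and 8.66% and 14.7% in the libraries labelled PARP3-/-. The ratios of the means were 3.26 and 2.66. Its substrate plasminogen, PLG, had a mean of 0.0031 FPKM over the 12 libraries and was not tested.
Of 13 listed genes of plasminogen activation 10 were tested, and 4 rose and 1 fell with vehicle and 5 rose and 1 fell with pyridostatin. SERPINE2, which inhibits plasminogen activators among other proteases, rose by 0.50 and 0.56 (adjusted p = 1.58e-05 and 7.39e-06, limma). SERPINI1, neuroserpin, an inhibitor of PLAT known from neurons, fell from 3.98 to 1.58 FPKM with vehicle and from 3.32 to 1.31 FPKM with pyridostatin (log2 differences -0.95 and -0.91, standard error 0.0973, adjusted p = 0.000101 and 0.000157, limma). Inhibitors of the activators thus moved in both directions.

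At the cell surface, NT5E was the most abundant of the 9 genes in every group. It was at 18.6, 16.3 and 18.1 FPKM in wild type and at 37.1, 37.7 and 35.7 FPKM in the libraries labelled PARP3-/- with vehicle, and at 14.1, 15.9 and 14.9 against 32.0, 33.0 and 32.0 FPKM with pyridostatin. With vehicle the ratio of its means, 2.09, was the lowest among the 8 genes that were higher, although the difference of 19.2 FPKM was the largest. Of 21 other genes of extracellular adenosine 8 were tested, and 1 rose and 2 fell with vehicle and 2 rose and 2 fell with pyridostatin. The adenosine receptor ADORA2B fell by 0.45 and 0.34 (adjusted p = 0.00174 and 0.00858, limma), and the nucleoside transporter SLC29A2 fell by 0.31 and 0.34 (adjusted p = 0.00266 and 0.00149, limma). ADA, which deaminates adenosine, rose by 0.31 and 0.22 (adjusted p = 0.00308 and 0.0162, limma), and its call with pyridostatin was lost in 5 of 20 alternatives. ENTPD1 (CD39), which supplies AMP to NT5E on many cells, had a mean of 0.037 FPKM and was not tested.

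UPK1B is a tetraspanin of the urothelial plaque, where it pairs with other uroplakins. It was at 0.795, 0.793 and 0.539 FPKM in wild type and at 5.03, 5.19 and 5.59 FPKM in the libraries labelled PARP3-/- with vehicle, and at 0.593, 0.772 and 0.782 against 4.72, 5.09 and 4.87 FPKM with pyridostatin. The ratios of the means were 7.44 and 6.84, second to PXDN, while its log2(FPKM + 1) differences of 1.88 and 1.78 were the largest of the 9. The urothelial markers UPK1A, UPK2, UPK3A and KRT20 were all below 1 FPKM in every library, with UPK3A at 0 throughout, and their summed level overlapped between genotypes (0.792 to 1.01 and 0.707 to 1.09 FPKM with vehicle). Another uroplakin, UPK3B, was expressed, at 22.6 FPKM in wild type and 19.3 FPKM in the libraries labelled PARP3-/- with vehicle (log2 difference -0.22, adjusted p = 0.0366, limma). With pyridostatin UPK3B was at 22.3 and 20.6 FPKM (-0.11, adjusted p = 0.269, limma). Of 33 listed uroplakins and tetraspanins 20 were tested, and 5 rose and 2 fell with vehicle and 4 rose and 1 fell with pyridostatin. The tetraspanins CD82 (0.65 and 0.64, adjusted p = 0.00256 and 0.00247, limma) and TSPAN5 (0.62 and 0.68, adjusted p = 7.07e-05 and 3.84e-05, limma) rose. TSPAN8 fell, by 0.63 and 0.52 (adjusted p = 0.000375 and 0.00139, limma). The median of the list, 0.062 and 0.088, was small beside these.

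CCBE1 is a secreted protein that helps the protease ADAMTS3 to activate the lymphatic growth factor VEGF-C. It was at 0.589, 0.577 and 0.711 FPKM in wild type and at 1.86, 1.74 and 1.78 FPKM in the libraries labelled PARP3-/- with vehicle, and at 0.431, 0.538 and 0.483 against 1.45, 1.68 and 1.72 FPKM with pyridostatin. The ratios were 2.87 and 3.34. ADAMTS3 itself had a mean of 0.015 FPKM and was not tested, and of 15 listed genes of VEGF-C processing and signalling 6 were, of which 3 rose with vehicle and 2 with pyridostatin. The co-receptor NRP2 rose by 0.52 and 0.39 (adjusted p = 0.00312 and 0.0141, limma) and the convertase FURIN by 0.25 and 0.22 (adjusted p = 0.0135 and 0.0260, limma). The co-receptor NRP1 rose by 0.35 with vehicle (adjusted p = 0.0437, limma), a call lost in 13 of 20 alternatives, and its difference with pyridostatin was 0.26 (adjusted p = 0.108, limma). FURIN's call with pyridostatin was lost in 5 of 20, 4 of them the removal of 1 pyridostatin library, with adjusted p up to 0.108.

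KIAA1462 encodes a protein of cell junctions best known from endothelium. It was at 0.627, 0.453 and 0.598 FPKM in wild type and at 1.97, 1.87 and 1.88 FPKM in the libraries labelled PARP3-/- with vehicle, and at 0.732, 0.712 and 0.749 against 2.06, 2.24 and 2.31 FPKM with pyridostatin. The ratios were 3.41 and 3.01, and the spread within groups was at most 16.6% of the mean. All 5 endothelial markers, PECAM1 and CDH5 among them, were below 1 FPKM in every library. Their summed level was 0.189 to 0.213 FPKM in wild type and 0.245 to 0.375 FPKM in the libraries labelled PARP3-/- with vehicle, and 0.116 to 0.190 and 0.315 to 0.383 FPKM with pyridostatin, and its part in the level of KIAA1462 was not tested. Of 22 listed genes of cell junctions and the YAP/TEAD pathway 21 were tested, and 4 rose and 3 fell with vehicle and 5 rose and 2 fell with pyridostatin. CTGF, a target gene of YAP, rose by 0.71 and 0.74 (adjusted p = 0.00412 and 0.00291, limma) and N-cadherin, CDH2, by 0.51 and 0.54 (adjusted p = 6.42e-05 and 4.91e-05, limma). Among other YAP/TEAD genes of this list, CYR61 rose by 0.28 with either treatment (adjusted p = 0.0454 and 0.0433, limma). AMOTL2 (0.017 and -0.033), ANKRD1 (0.15 and 0.23) and YAP1 itself did not pass with either treatment (adjusted p at least 0.173, limma). The tight junction scaffold TJP3 fell by 0.55 and 0.41 (adjusted p = 0.00106 and 0.00588, limma).

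**Figure D2:**
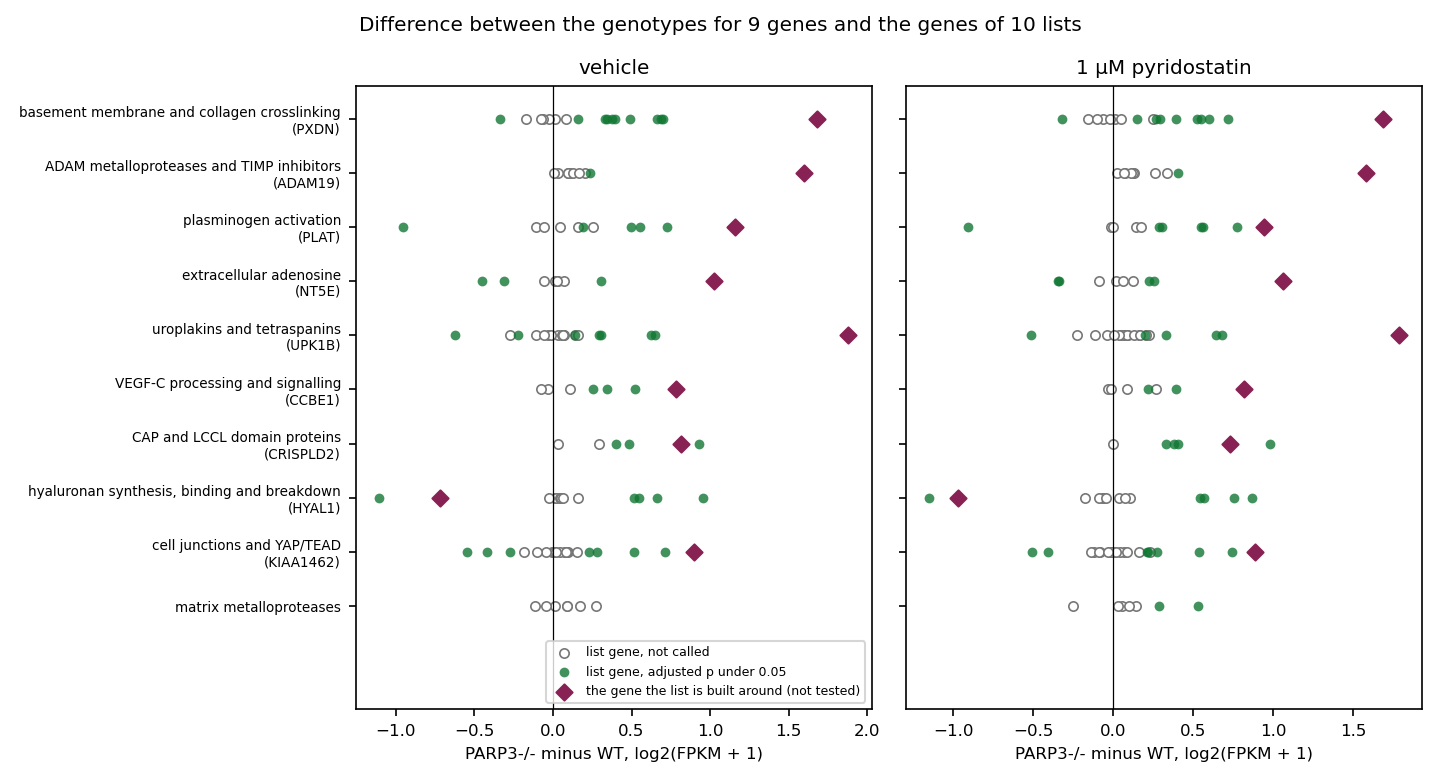
Difference between the genotypes on the log2(FPKM + 1) scale (x axis, libraries labelled PARP3-/- minus wild type) for the tested genes of the 10 lists (rows), with vehicle on the left and pyridostatin on the right; green points passed an adjusted p of 0.05, open points did not, and diamonds are the gene each list was built around, which was not tested. Of 115 list genes 44 passed with vehicle and 45 with pyridostatin, and VCAN was the only one past 1 in size on this scale.

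Over all 10 lists together, 115 of 213 genes were tested. With vehicle 44 passed (34 higher and 10 lower) and with pyridostatin 45 (37 higher and 8 lower), and 39 passed in both. These are 38.3% and 39.1% of the 115, where 9.41% and 10.9% of all tested genes passed, and 825 of the 11881 passed in both. The comparisons with vehicle and with pyridostatin share no library, although 1 fit gave the spread for both. The median difference of the 115 was 0.077 and 0.092. Since the lists were drawn up around genes already known to differ, and with results of these data known, no more than the counts is read from them. Shifting each library to a common median moved the share of higher genes among all calls with vehicle from 68.0% to 51.7% and with pyridostatin from 64.8% to 53.1%. For the list genes the same shift gave 27 higher and 11 lower with vehicle and 28 higher and 9 lower with pyridostatin. Without wild-type vehicle replicate 2, 51 list genes passed with vehicle (39 higher and 12 lower) and 53 with pyridostatin (41 higher and 12 lower).

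The effect of pyridostatin was not used to choose the 9 genes, although it is measured in the same libraries. In wild type 1 of 9 passed (NT5E), where 4.17% of all tested genes did, and in the libraries labelled PARP3-/- 1 of 9 passed (HYAL1), where 5.56% did. At an unadjusted p under 0.05 (limma) there were 2 and 3 of the 9, where there were 20.3% and 19.6% of all tested genes. A gene that did not pass is not thereby shown to be unchanged. In wild type NT5E fell from 17.7 ± 1.21 to 15.0 ± 0.872 FPKM (SD, n = 3), a log2 difference of -0.22 (standard error 0.0535, adjusted p = 0.0447, limma). In the libraries labelled PARP3-/- its mean was 36.9 FPKM with vehicle and 32.3 FPKM with pyridostatin, a difference of -0.18 that did not pass (adjusted p = 0.0775, limma) but did without wild-type vehicle replicate 2 (adjusted p = 0.0189, limma). In both genotypes all 3 pyridostatin libraries lay below all 3 vehicle libraries. The wild-type call was marginal: it was lost in 14 of 20 alternatives, including 10 of the 12 removals of 1 library, over which its adjusted p ran from 0.00848 to 0.180.

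HYAL1 fell in the libraries labelled PARP3-/-, from 1.22 ± 0.0539 to 0.767 ± 0.101 FPKM (SD, n = 3), a drop of 37.0% in mean FPKM and a log2 difference of -0.33 (standard error 0.0620, adjusted p = 0.0136, limma). The groups did not overlap (1.16 to 1.27 against 0.656 to 0.851 FPKM). In wild type HYAL1 was at 2.65 and 2.47 FPKM with overlapping libraries, a difference of -0.075 (95% interval -0.21 to 0.062, adjusted p = 0.541, limma). The call was lost without vehicle replicate 1, vehicle replicate 2 or pyridostatin replicate 3 of the libraries labelled PARP3-/-, at adjusted p = 0.0526, 0.0502 and 0.0607 (limma). The difference of the 2 effects was -0.25 (95% interval -0.45 to -0.059), and it did not pass over all genes (adjusted p = 0.999, limma). This interaction uses the same groups as the genotype differences by which the genes were chosen, so it is not independent of that choice.

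The other 7 genes did not pass in either genotype. KIAA1462 came nearest on the side of a rise, at 0.15 in wild type and 0.14 in the libraries labelled PARP3-/- (adjusted p = 0.201 and 0.248, limma), with no overlap between treatments in either genotype. Its mean FPKM changed by 30.7% and 15.5%, and the log2(FPKM + 1) scale understates such changes near or below 1 FPKM. After quantile normalization its wild-type difference was -0.019. CCBE1 was on the other side, at -0.13 and -0.096 (adjusted p = 0.301 and 0.487, limma), again with no overlap between treatments. Its mean FPKM changed by -22.7% in wild type and -9.86% in the libraries labelled PARP3-/-. How many of all tested genes had no overlap between treatments was not computed, so nothing is read from the gaps named here and above. The difference of PLAT was 0.050 in wild type and -0.16 in the libraries labelled PARP3-/-, with a 95% interval of the difference between the effects of -0.46 to 0.031. For PXDN, whose genotype ratio was the highest, the effects were 0.024 (95% interval -0.11 to 0.16) and 0.034 (-0.099 to 0.17), on a scale that understates changes of its wild-type level below 1 FPKM. The interaction passed for none of the 9 and for 0% of all tested genes (limma). At an unadjusted p under 0.05 there was 1 of the 9 (HYAL1) and 521 genes in all (4.39%). As the 9 were chosen by genotype differences in these same groups, nothing is read from that count.

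**Figure D3:**
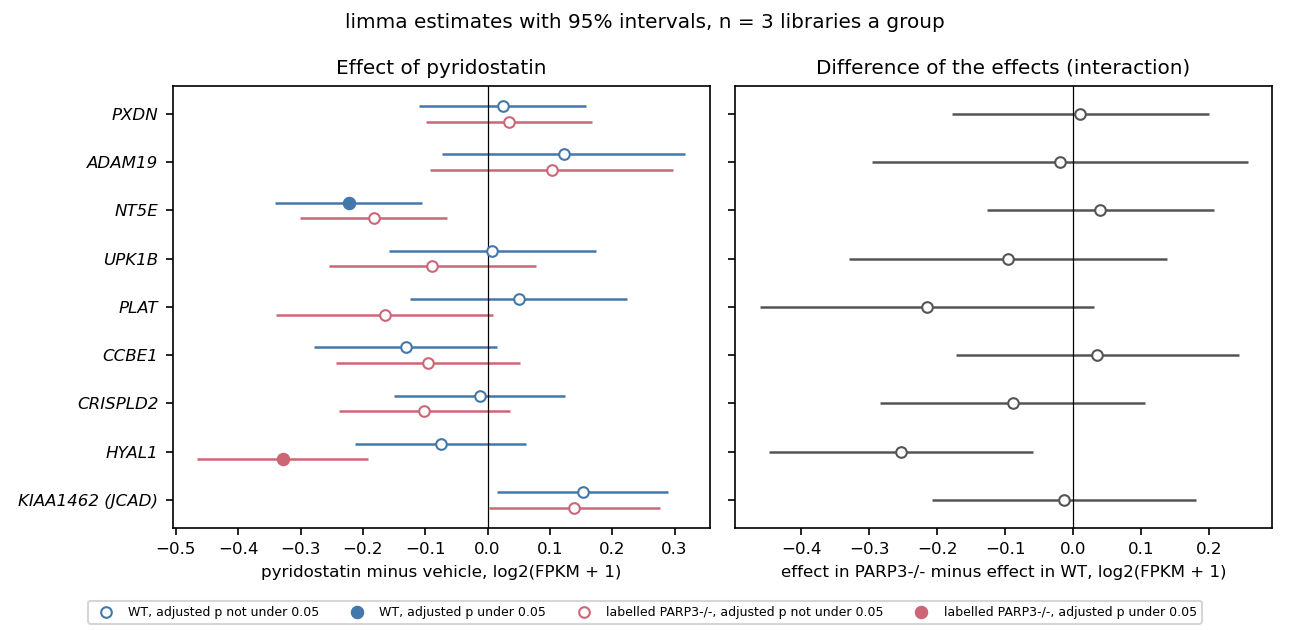
Left, effect of pyridostatin on each of the 9 genes (pyridostatin minus vehicle, log2(FPKM + 1)) in wild type (blue) and in the libraries labelled PARP3-/- (red), with 95% intervals from limma (n = 3 libraries a group) and filled points for an adjusted p under 0.05. Right, the difference between the 2 effects; only NT5E in wild type (-0.22) and HYAL1 in the libraries labelled PARP3-/- (-0.33) are filled, and no interaction passed.

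The 5 genes with a G4 pattern in a promoter window (ADAM19, NT5E, CRISPLD2, HYAL1 and KIAA1462) had pyridostatin effects of 0.12, -0.22, -0.013, -0.075 and 0.15 in wild type and 0.10, -0.18, -0.10, -0.33 and 0.14 in the libraries labelled PARP3-/-. The 3 with a window and no such pattern (PXDN, UPK1B and CCBE1) had effects of 0.024, 0.0079 and -0.13 in wild type and 0.034, -0.088 and -0.096 in the libraries labelled PARP3-/-. Both called genes stand in the former group, which holds 5 of the 8 genes with a window. That group also holds the largest positive differences, those of KIAA1462 and ADAM19, and KIAA1462 has the pattern only in its second window. No test was made between the groups, and nothing is read from this split. Among the list genes, 2 of 115 passed for pyridostatin in wild type (AMOTL2 higher by 0.21 and SERPINF2 lower by 0.36, adjusted p = 0.0447 and 0.0358, limma) and 5 in the libraries labelled PARP3-/-. These are 1.74% and 4.35% of the list genes, below the 4.17% and 5.56% of all tested genes, and nothing about the lists is read from them. Among the latter, CTGF (0.49) and TIMP2 (0.18) rose, and HMMR (-0.32) and TNFAIP6 (-0.32) fell, with adjusted p from 0.00860 to 0.0496 (limma). The genes named were picked because they passed. Without wild-type vehicle replicate 2 the counts were 4 and 15.

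To show the genotype gaps in their place on the chromosome, the 2 nearest tested genes on each side of every gene were compared. Of these 36 neighbours 3 passed with vehicle and 3 with pyridostatin (8.33% each), where 9.41% and 10.9% of all tested genes did, and the median size of the difference was 0.088 and 0.099. NIPAL4, next to ADAM19, rose as well, from 2.02 to 4.38 FPKM with vehicle and from 2.28 to 4.94 FPKM with pyridostatin (log2 differences 0.83 and 0.86, adjusted p = 1.64e-06 and 1.35e-06, limma). TBX18, next to NT5E, fell from 10.7 to 7.34 FPKM and from 10.9 to 7.67 FPKM (-0.49 and -0.45, adjusted p = 0.00291 and 0.00423, limma), opposite to NT5E. MAP3K8, near KIAA1462, was lower with vehicle (-0.23, adjusted p = 0.0225, limma) and POLB, near PLAT, with pyridostatin (-0.26, adjusted p = 0.0380, limma). The latter call was lost in 9 of 20 alternatives and that of MAP3K8 in 3 of 20, with adjusted p up to 0.140 and 0.122. PXDN, UPK1B, CCBE1, CRISPLD2 and HYAL1 had no called neighbour, and no neighbour that was not called differed by more than 0.29. Without wild-type vehicle replicate 2, 8 neighbours passed with vehicle and 5 with pyridostatin.

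**Figure D4:**
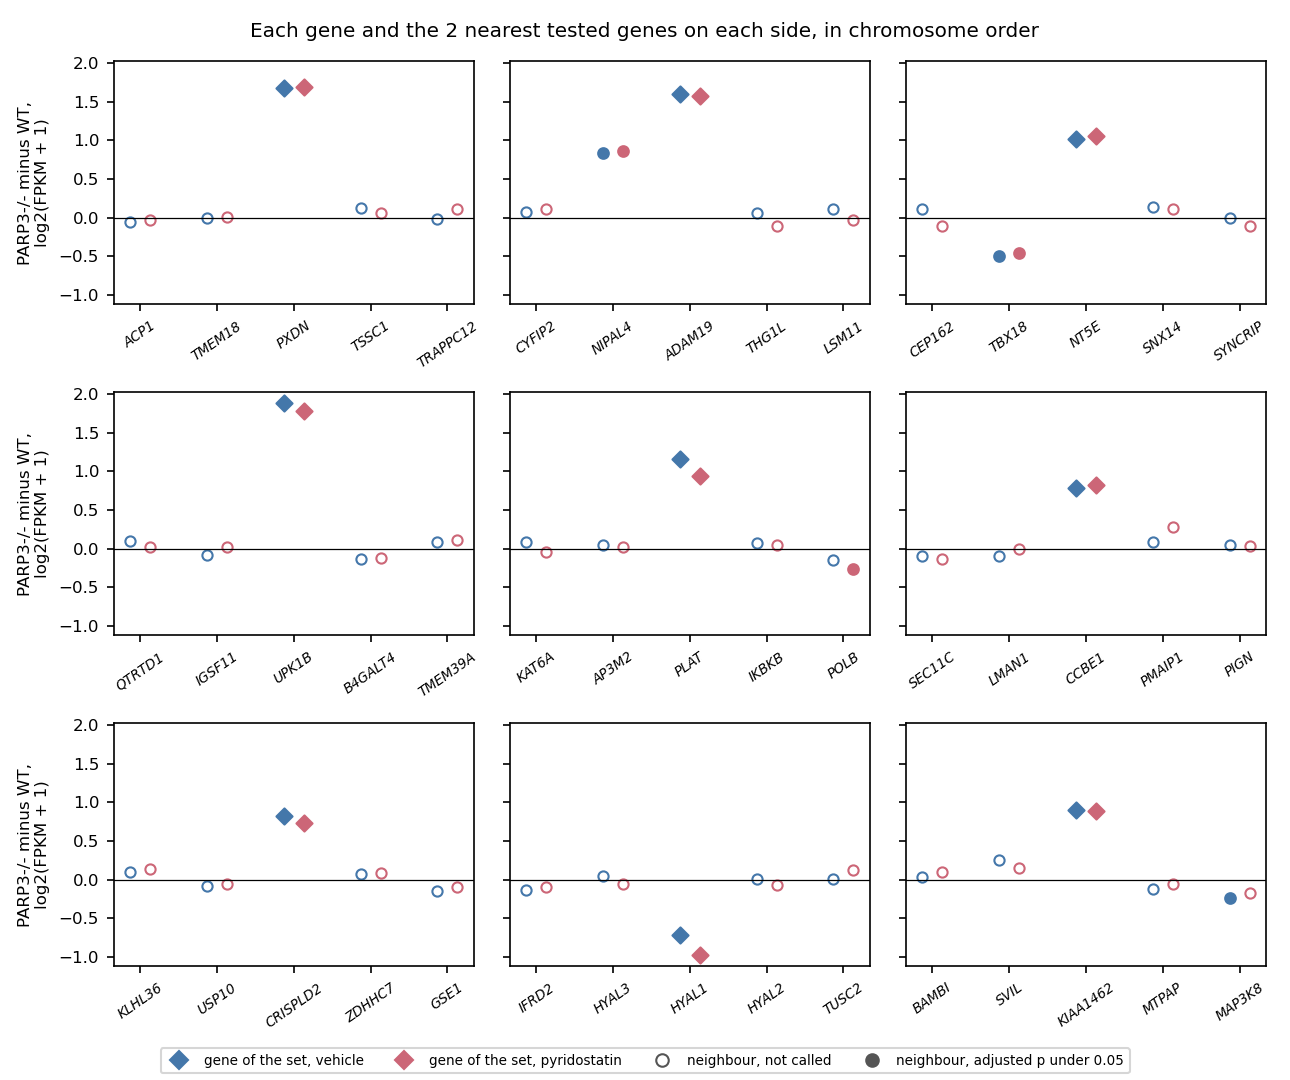
Difference between the genotypes (y axis, log2(FPKM + 1), libraries labelled PARP3-/- minus wild type) for each of the 9 genes (diamonds) and the 2 nearest tested genes on each side (circles) in RefSeq chromosome order, with vehicle in blue and pyridostatin in red; the x axis gives order, not distance. Filled circles passed an adjusted p of 0.05: NIPAL4 rises beside ADAM19 (0.83 and 0.86) while most neighbours lie near 0.

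Levels of the 9 genes spanned a wide range within each group. In wild type with vehicle NT5E was highest, ahead of HYAL1, ADAM19, CRISPLD2 and PLAT, each of which was apart from the next, while the libraries of UPK1B, CCBE1, KIAA1462 and PXDN overlapped from each gene to the next. In the libraries labelled PARP3-/- with vehicle the order was NT5E, ADAM19, UPK1B, PLAT, PXDN, CRISPLD2, KIAA1462, CCBE1 and HYAL1, with no overlap between neighbours in this order. HYAL1 thus stood second of the 9 in wild type and last in the libraries labelled PARP3-/-. With pyridostatin HYAL1 overlapped ADAM19 in wild type, and PXDN, PLAT and CRISPLD2 overlapped in turn in the libraries labelled PARP3-/-.

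Over the 12 libraries each of the 8 genes given here had some other tested gene with a nearly identical pattern, by the Pearson correlation of log2(FPKM + 1). The best match of PXDN was COL6A1, a chain of collagen VI (r = 0.997), that of ADAM19 was PODXL (r = 0.998), that of NT5E was IL7R (r = 0.997) and that of UPK1B was ABLIM3 (r = 0.995). SGCD matched PLAT (r = 0.989), ZNF185 matched CCBE1 (r = 0.993), CDCP1 matched CRISPLD2 (r = 0.994) and STC2 matched HYAL1 (r = 0.983). The points are 12 libraries in 4 groups, so these values mostly reflect the same step between genotypes, which any gene with a wide gap has. Once the group means were subtracted, the correlation between pairs of the 9 genes ran from -0.83 (PXDN and HYAL1) to 0.89 (CRISPLD2 and KIAA1462) over the same 12 libraries, and UPK1B followed none of the others (-0.18 to 0.13).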

How the data were processed

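The table the authors deposited held FPKM values, made with Cufflinks and named for it, with 1 column a library and 25365 gene names. The submitters' processing notes list bcl2fastq 2.16, STAR 2.5, Cufflinks and the builds hg19 and mm9 without giving roles, and human coordinates of the files are taken as hg19. Libraries were stranded poly(A) libraries read from 1 end. Read counts were not used here, so the study's DESeq2 model on counts was replaced by limma 3.58.1 in R 4.3.3 on log2(FPKM + 1). A mean of 1 FPKM or more over the 12 libraries was required, which kept 11881 genes. Of the names, 6033 were at 0 in every library and 28 had been turned into dates. A single model of the 4 groups without a block was used, with eBayes and a trend, and Benjamini-Hochberg adjustment over all tested genes at 0.05. PARP3 was compared by a two-sided exact permutation test. The procedure was tested on simulated data. Replicates are biological triplicates per the study, but nothing ties them to separate clones, so p-values measure the spread between these libraries.

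The 9 genes, the 10 gene lists and the neighbours were chosen with earlier results of these data known. By rule, from each list genes past the threshold and past a log2 difference of 1 were named, then those with the largest differences up to 3, as were called neighbours and the best correlated gene of each of the 9. Some genes that this rule selects are not reported here. Genes named outside that rule were picked after their values were seen: list genes called for pyridostatin, HYAL2, HYAL3, UPK3B, CYR61, ANKRD1 and YAP1, and partners below the filter (PLG, ENTPD1, ADAMTS3, PXDNL). GENCODE gave transcript lengths. RefSeq (GRCh38.p14) gave names, neighbour order and promoter windows, and 98.2% of tested genes were matched. Its coordinates are printed for promoter windows only and were not used with the hg19 values. Depth is approximate: ratios between low FPKM values gave relative depth, and 255 genes with a known length gave its scale, about 21600000 to 30700000 reads a library with quartiles of 21000000 to 26300000 for the first. Alternatives were the pseudocount, the filter, quantile or median scaling, only the libraries compared, no trend, the replicate block, thresholds on the log2 difference and leaving out each library. Tables were handled with pandas 2.3.3 and numpy 2.4.6, the exact test with scipy 1.17.1 and figures with matplotlib 3.10.9 in Python 3.11.15.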

Additional observations from a re-analysis of the deposited data

How the results depend on the processing

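The median size of the genotype difference of the 9 genes was 1.62 with vehicle and 1.56 with pyridostatin at a pseudocount of 0.1, against 1.02 and 0.97, and 1.06 with pyridostatin after quantile normalization. Leaving out 1 library gave 0.97 to 1.06 and 0.93 to 1.01. NT5E in wild type was not called (0 of 9) with no filter, with only the libraries compared, without a trend or with the replicate block (adjusted p = 0.0814, limma), and leaving out 1 library gave 0 to 1. Under the PARP3-/- label none was called at a mean of 5 FPKM, where ADAM19 and NT5E are the only genes of the set still tested. There were 2 after the median shift and 2 with only the libraries compared, and leaving out 1 library gave 0 to 2. The interaction called 0 of 9 and 0 genes in all in the main fit, and 0 of 9 in every alternative run.

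Of the list genes called between genotypes (44 and 45), 26 were called with vehicle when only its libraries were fitted. Past a log2 difference of 0.58 there were 13 and 11, and past 1 there was 1 each. Leaving out 1 library gave 35 to 51 and 32 to 53. For pyridostatin in wild type (2) the list count was 1 at a mean of 5 FPKM, 4 after the median shift, 0 with only the libraries compared and 0 to 4 without 1 library. Under the PARP3-/- label (5) it was 2 with no filter, 3 after the median shift, 3 without a trend and 1 to 15 without 1 library, the 15 without wild-type vehicle replicate 2. Neighbours called (3 and 3) became 5 and 5 after the median shift, 5 with pyridostatin in only its libraries, 1 and 1 past 0.58, 0 and 0 past 1, and 2 to 8 and 2 to 5 without 1 library, the 8 and 5 without wild-type vehicle replicate 2. The causes were not tested. No direction reversed among called values, and 44 of 59 called values of single genes stayed called in every alternative.

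Deviations of same-numbered replicates had correlations of -0.12 to 0.22 over the 4 comparisons. Differently numbered replicates were not compared, so whether the numbers pair the libraries is not settled by these values. With the replicate block 42 list genes were called with vehicle and 44 with pyridostatin, of which 41 and 42 were among those called without it. In their lowest libraries UPK1B, HYAL1, PXDN, PLAT and CCBE1 rest on about 30 to 70 reads with the longest transcript. With the shortest transcript they rest on about 10. With 3 libraries a group, 95% intervals for pyridostatin were up to 0.20 wide on each side within the set, the widest being those of ADAM19. The width differed between genes, so small effects could be missed for some genes and not for others. Among the list genes, TIMP2 passed at 0.18 in the libraries labelled PARP3-/-. PARP3 differed by 0.431 to 0.856 FPKM with vehicle and 0.685 to 0.934 FPKM with pyridostatin when 1 library was left out.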
